A study of Caenorhabditis elegans with 2 samples.

Results

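Gene-body peaks of MDT-29 are sites where this Mediator subunit was recovered inside protein-coding genes, away from their starts. They were chosen from the main peak list, which the authors made from both samples. A main peak was kept when its summit lay inside a protein-coding gene, more than 500 bp from every protein-coding transcript 5' end and more than 250 bp from any tRNA, snRNA or snoRNA gene. Of the 1705 main peaks 327 met this rule (19.2%, exact 95% interval 17.3 to 21.1%), of which 222 lay in introns (13.0%) and 105 in exons (6.16%). They lay in 273 host genes. The other main peaks comprised 560 at promoters (within 500 bp of a 5' end), 465 between genes and 353 at small RNA genes.

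The data come from chromatin immunoprecipitation and sequencing (ChIP-seq) of whole Caenorhabditis elegans worms at the L4 larval stage, 48 hours of age, synchronised by starving L1 larvae after bleaching. There was 1 group, with 2 samples labelled as biological replicates 1 and 2. The worms were of strain RJP4521, which carries allele rp133, a CRISPR insertion on chromosome III written Degron::GFP::mt-29, a degron and green fluorescent protein (GFP) tag. Another label calls the protein mdt-29-eGFP and names an antibody against GFP, while the antibody field names mdt-29. Both samples carry the tag, so no comparison between genotypes was possible, and an untagged strain was not analysed here. Whole animals were used, so a peak cannot be assigned to a tissue.

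Mediator is a large coactivator complex that links transcription factors on DNA with the polymerase that makes mRNA. MDT-29 belongs to its tail region, which contacts such factors. Enhancers, the sequences that such factors bind at a distance from a gene's start, often lie within introns, and long first introns are a common place for them in worms.

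The summit and the 100 bp on each side of it are shown for the strongest intron and exon peaks that were in both samples' lists, because their letters recur in the results that follow. Sequences are from the RefSeq WBcel235 assembly (ce11), plus strand, 5' to 3', with chromosome positions counted from 1. Windows that overlap an annotated untranslated region were passed over, which left out, among others, the strongest exon peak, at C34C12.2. Capitals mark matches on either strand to any of the 10 words searched. These were TGATAA (the site of zinc finger factors such as ELT-2), GAANNTTC (a pair of inverted heat shock element units), CACGTG (an E-box), TGANTCA (a bZIP site), the GA repeat GAGAGAGA, the word CTGCGTCT, the tRNA B box word GTTCGANNC, the GC box word GGGCGG, the A tract AAAAAAAA and, last, the core promoter word TATAAA.
epg-9 intron 2, chrIV:2602077-2602277: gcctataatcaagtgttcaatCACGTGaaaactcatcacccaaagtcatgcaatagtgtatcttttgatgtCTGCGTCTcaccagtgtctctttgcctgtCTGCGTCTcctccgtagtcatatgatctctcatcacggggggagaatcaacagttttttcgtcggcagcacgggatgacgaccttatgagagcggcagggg
Y111B2A.12 intron 4, chrIII:12614641-12614841: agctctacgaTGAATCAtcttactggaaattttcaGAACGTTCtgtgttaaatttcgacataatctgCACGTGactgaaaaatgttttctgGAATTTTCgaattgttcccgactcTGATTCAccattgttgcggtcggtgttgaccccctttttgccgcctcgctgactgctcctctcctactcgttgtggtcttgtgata
tir-1 intron 1, chrIII:3897224-3897424: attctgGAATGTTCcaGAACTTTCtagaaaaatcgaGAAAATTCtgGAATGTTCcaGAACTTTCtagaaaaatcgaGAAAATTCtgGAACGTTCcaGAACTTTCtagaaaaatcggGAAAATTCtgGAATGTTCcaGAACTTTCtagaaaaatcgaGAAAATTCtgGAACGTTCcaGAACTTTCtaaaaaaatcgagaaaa
Y111B2A.12 intron 4, chrIII:12612568-12612768: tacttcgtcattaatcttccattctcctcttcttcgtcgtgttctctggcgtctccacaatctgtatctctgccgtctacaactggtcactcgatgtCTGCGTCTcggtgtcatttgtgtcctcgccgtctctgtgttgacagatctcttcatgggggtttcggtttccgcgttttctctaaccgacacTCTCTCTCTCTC
mom-1 intron 7, chrX:6296446-6296646: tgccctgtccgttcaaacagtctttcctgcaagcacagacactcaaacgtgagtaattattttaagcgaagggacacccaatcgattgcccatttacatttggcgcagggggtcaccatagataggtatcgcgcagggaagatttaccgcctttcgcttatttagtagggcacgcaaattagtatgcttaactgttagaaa
cua-1 intron 7, chrIII:13447546-13447746: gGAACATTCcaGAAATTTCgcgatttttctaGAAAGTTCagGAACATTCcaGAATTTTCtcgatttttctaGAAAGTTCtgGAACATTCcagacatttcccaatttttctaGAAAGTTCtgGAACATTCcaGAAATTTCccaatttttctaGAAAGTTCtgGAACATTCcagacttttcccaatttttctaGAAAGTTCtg
dos-3 exon 11, chrIII:835871-836071: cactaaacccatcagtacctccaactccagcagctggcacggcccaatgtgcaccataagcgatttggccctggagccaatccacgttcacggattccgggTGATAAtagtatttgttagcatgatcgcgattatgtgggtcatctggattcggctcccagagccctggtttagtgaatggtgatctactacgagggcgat
pks-1 exon 22, chrX:5429469-5429669: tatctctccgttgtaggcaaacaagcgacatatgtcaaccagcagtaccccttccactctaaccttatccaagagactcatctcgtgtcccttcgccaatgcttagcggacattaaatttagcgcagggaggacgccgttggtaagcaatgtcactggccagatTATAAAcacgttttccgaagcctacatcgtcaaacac
pqm-1 exon 5, chrII:11151045-11151245: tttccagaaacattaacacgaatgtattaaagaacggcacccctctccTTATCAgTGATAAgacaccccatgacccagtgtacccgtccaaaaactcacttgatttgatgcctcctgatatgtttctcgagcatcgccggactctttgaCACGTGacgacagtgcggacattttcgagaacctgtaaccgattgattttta

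These windows differ in what they hold. That of epg-9 has 1 E-box and 2 matches of CTGCGTCT, and the stronger window of Y111B2A.12 has 1 E-box. The windows of tir-1 and cua-1 are arrays of inverted heat shock element units, with 14 and 13 matches of GAANNTTC, while the windows of mom-1, dos-3 and pks-1 hold few or no marked words.

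Signal, the strength value that the authors' processing gave each peak, varied widely among the gene-body peaks. It is quoted first for the main list and then for the single samples. For each sample the authors deposited a ranked list and a thresholded list. A single-sample value is the highest signal among the peaks of the ranked list that overlap the main peak. Presence in a sample's list refers to the thresholded list. No source used here says if the samples were put on 1 scale. The strongest intron peak lay in intron 2 of epg-9, which encodes the autophagy protein Atg101, with a main signal of 540.02, 241 in replicate 1 and 297 in replicate 2. Intron 4 of Y111B2A.12, a gene of a WD repeat protein, held a pair of peaks. The stronger had a main signal of 494, with 203 in replicate 1 and 298 in replicate 2. Its neighbour had 338, with 163 in replicate 1 and 171 in replicate 2. All 3 were in both samples' lists, and for the stronger of the pair the samples differed by far more than for its neighbour.

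The intron peaks next in signal lay in genes of varied function. In intron 1 of tir-1, which encodes an NAD hydrolase of innate immunity and axon degeneration, the main signal was 405, with 189 in replicate 1 and 242 in replicate 2. In intron 7 of mom-1, the worm Porcupine that attaches lipid to Wnt proteins, it was 323, with 147 and 161 in replicates 1 and 2. In intron 7 of cua-1, a copper transporter gene, it was 298, with 117 and 176. Signal was higher in replicate 2 at all 3 of these genes.

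The intron peaks ranked 7 to 15 by signal had main signals between 213 and 279.9 and were likewise found in both samples' lists. They lay in ints-8 of the Integrator complex, F09A5.3, the calcium/calmodulin-dependent kinase gene cmk-1, mdt-26, abts-4 (an anion exchanger), gei-4, Y41G9A.17, ZK470.2 and mod-5, the serotonin transporter gene. The gene mdt-26 encodes another Mediator subunit and also had a main peak within 500 bp of one of its 5' ends. Its gene-body peak lay in intron 2, 652 bp from the nearest 5' end, with a main signal of 259, and 124 in replicate 1 and 144 in replicate 2. Signals of replicates 1 and 2 were 131 and 107 at gei-4, and 131 and 98.4 at ZK470.2, so both were higher in replicate 1.

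Exon peaks were weaker at the top. The strongest lay in C34C12.2, in an annotated 5' untranslated region but over 500 bp from any 5' end, with a main signal of 293, 119 in replicate 1 and 160 in replicate 2. The next lay in the last exon of dos-3, a gene of the Delta and OSM-11 family that acts in Notch signalling, with 248, and 121 and 119 in replicates 1 and 2. In exon 22 of pks-1, the polyketide synthase gene, the main signal was 221, with 111 and 109 in replicates 1 and 2. These last peaks were nearly equal in both samples. The exon peaks ranked 4 to 10, at adal-1, pqm-1, C05D11.8, suro-1, F26F12.3, T28F4.4 and Y110A7A.7, had main signals of 126 to 182 and were all in both lists. That in exon 5 of pqm-1, which encodes a zinc finger transcription factor, had 62.0 in replicate 1 and 116 in replicate 2.

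**Figure D1:**
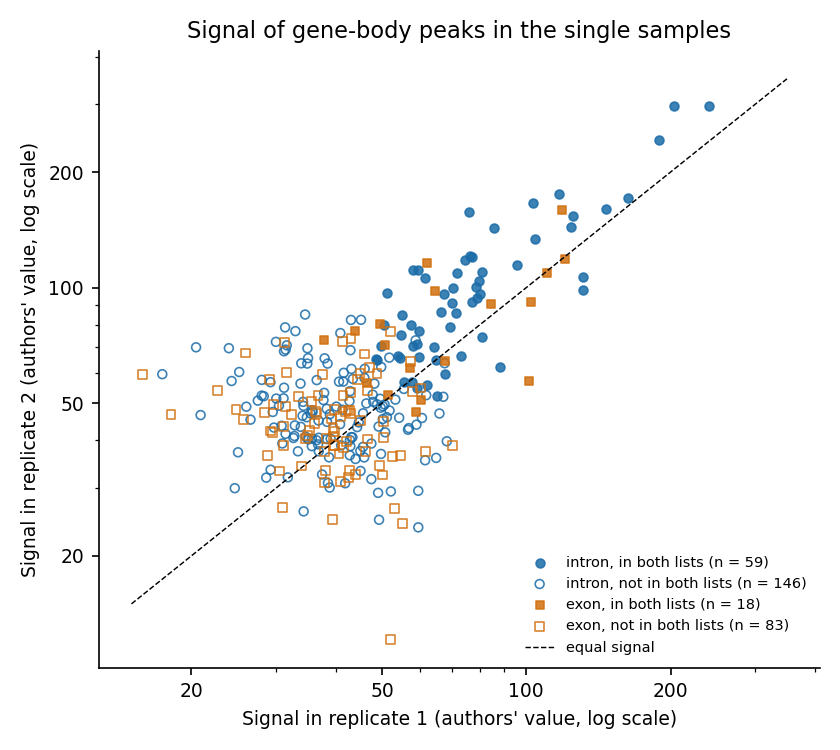
Signal of each gene-body peak in replicate 1 (x axis) and replicate 2 (y axis), both the authors' values on log scales, for the 306 peaks with a value in both samples that do not share those values with a stronger neighbour. Blue circles are intron peaks and orange squares exon peaks, filled where the peak was in both samples' lists, and the strongest points are filled and mostly intron peaks.

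Across all members the median main signal was 92.6 for intron peaks and 83.0 for exon peaks, against 97.9 for promoter peaks and 101 for intergenic peaks. In the single samples the medians were 45.9 in replicate 1 and 52.5 in replicate 2 for intron peaks, and 41.5 and 47.5 for exon peaks. The ratio of replicate 2 to replicate 1 had a median of 1.21 over the gene-body peaks and 1.25 over all main peaks. Signal in the 2 samples was correlated across intron peaks with Spearman's rho = 0.476 (n = 205) and across exon peaks with rho = 0.234 (n = 101), against 0.586 across promoter peaks (n = 526). These are descriptions across peaks, which share the same 2 libraries and were chosen by the authors for repeatable ranks. They leave out side peaks, which take their single-sample values from the same peak as a stronger neighbour, such as the weaker of the adjacent peaks in intron 1 of tir-1 (main signal 29.2). There were 14 side peaks among the members, 11 in introns and 3 in exons. A further 7 members had no value in at least 1 sample, and 5 intron peaks had a main signal under 10.

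How often gene-body peaks were found in each sample alone was asked of the authors' thresholded single-sample lists, which the choice of members did not use. A peak counted as found when it overlapped a peak of the sample's list by at least 1 bp. Both lists held 25.1% of the gene-body peaks (82 of 327, 20.5 to 30.1%), against 32.3% of all main peaks. Replicate 1 held 39.4% of them against 42.5% of all main peaks, and replicate 2 held 41.6% against 55.8%. Neither list held 44.0% of them (144 of 327). Yet 320 of the 327 overlapped a peak of the ranked list in both samples. Being outside a thresholded list therefore does not mean that no peak was ranked there. The gene-body share in both lists was below that of promoter peaks (33.4%, odds ratio 0.668, two-sided Fisher's exact test, adjusted p = 0.0151) and of intergenic peaks (35.9%, odds ratio 0.597, adjusted p = 0.00424). The p-values were adjusted by Benjamini-Hochberg over the 3 comparisons made and treat peaks as independent. With presence in replicate 1 in place of both, the odds ratios were 0.869 (Fisher's exact adjusted p = 0.324) and 0.791 (0.219), and among main peaks at or above the median signal they were 0.729 and 0.840 (0.495 each), so neither call stood there.

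Intron peaks were in both lists more often than exon peaks, at 28.8% (64 of 222, 23.0 to 35.3%) and 17.1% (18 of 105, 10.5 to 25.7%), an odds ratio of 1.96 (two-sided Fisher's exact test, adjusted p = 0.0284). Without side peaks the shares were 28.0% and 17.6%, with an odds ratio of 1.81 (Fisher's exact adjusted p = 0.0507), so the call did not stand. It was also lost with presence in replicate 1 alone, where the odds ratio was 1.47 (0.219, the same test). In the authors' conservative list it was 1.70 (Fisher's exact adjusted p = 0.0801), with an overlap of 50% of both lengths 1.75 (0.0964) and among main peaks at or above the median signal 1.43 (0.495).

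Signal moved with these shares. Main peaks were split by signal into quartile groups of like size. Of the gene-body peaks 15.3% were in the strongest quartile of the main list and 36.1% in the weakest, and of exon peaks alone 7.62% and 46.7%. In the strongest quartile 48 of 50 gene-body peaks were in both lists (96.0%, 86.3 to 99.5%), against 94.0% of promoter and 93.1% of intergenic peaks. In the next group the shares were 38.5% (30 of 78), 34.8% and 31.8%. In the group below it 0 of 81 gene-body peaks were in both, which allows a share of up to 3.70%. Within a group, then, the intervals of the 3 classes overlapped. How far signal accounts for the difference between classes was not tested.

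**Figure D2:**
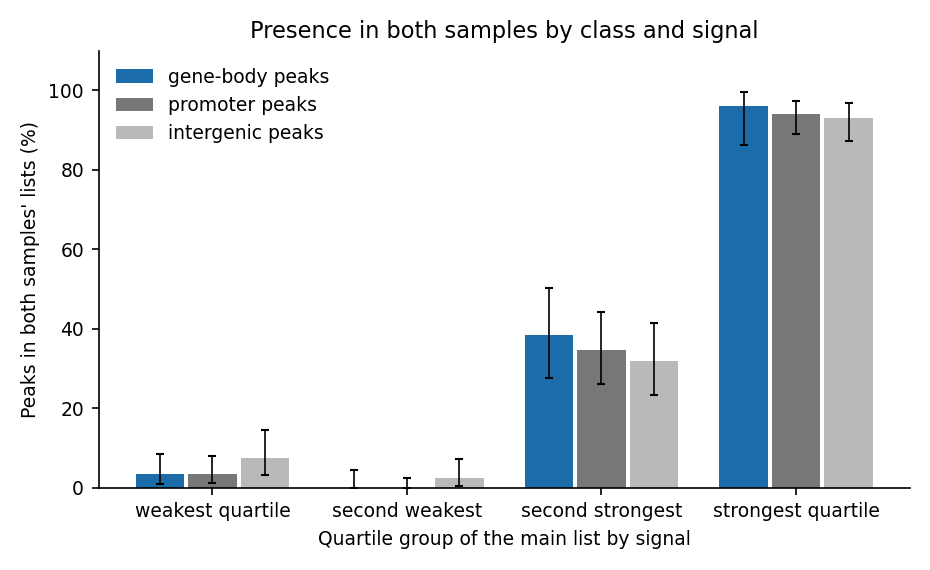
Share of peaks found in both samples' lists (y axis, %) in each quartile group of the main list by signal (x axis), for gene-body, promoter and intergenic peaks, with exact 95% intervals. In the strongest quartile the shares are 96.0%, 94.0% and 93.1%, and in the 2 weaker groups all are under 10%.

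Intron peaks were spread unevenly over the intron sequence that the rule allows. There were 8.45 intron peaks per Mb of such sequence (26.3 Mb) and 5.07 exon peaks per Mb of exon sequence (20.7 Mb). Of the 216 intron peaks inside a protein-coding transcript, 61 lay in its first intron (28.2%, 22.3 to 34.7%), while first introns made up 17.4% of the allowed intron sequence. When the first intron of any transcript counted, the share was 38.9% of peaks, against 24.1% of the allowed intron sequence counted the same way. Later introns held 155 peaks (71.8%). Introns 2 and 3 held 13.9% each, intron 4 held 16.2% and introns from 7 on held 15.7%, the last against 25.4% of the sequence.

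**Figure D3:**
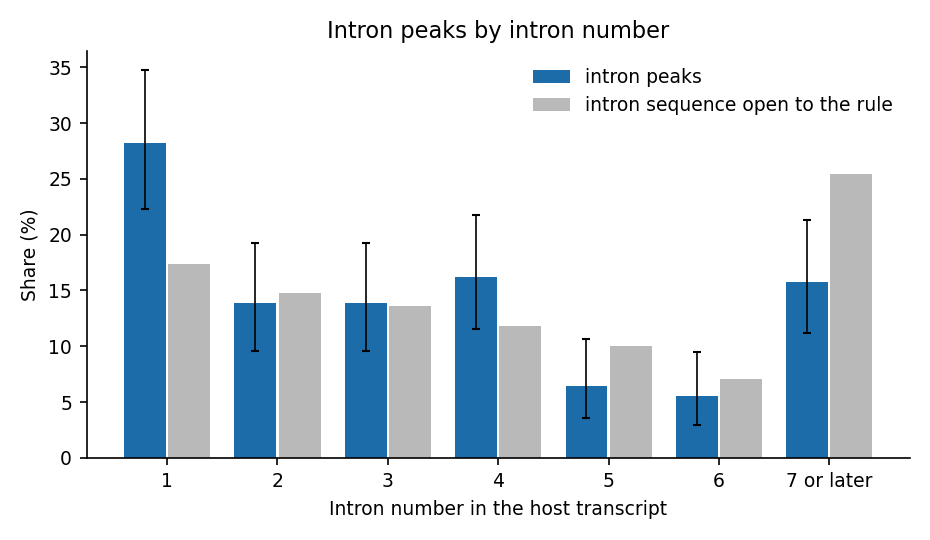
Share of intron peaks by the number of the intron in the host transcript (blue, with exact 95% intervals, n = 216) beside the share of intron sequence open to the rule (grey). The first intron holds 28.2% of peaks and 17.4% of sequence, and introns from the seventh on hold 15.7% and 25.4%.

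The introns with peaks were long. Their median length was 3044 bp, while the median position of the allowed intron sequence lay in an intron of 1046 bp. Of the intron peaks 81.0% were in introns of at least 1000 bp (51.8% of the sequence) and 34.7% in introns of at least 5000 bp (15.4%). The intron was the longest of its transcript for 70.4% of peaks, against 47.6% of the sequence. First introns with a peak had a median length of 5872 bp and later ones 2157 bp. Peaks in first and later introns had median main signals of 92.4 and 91.9 and were in both lists in 26.2% (16 of 61, 15.8 to 39.1%) and 28.4% (44 of 155, 21.4 to 36.2%) of cases. The remaining 6 intron peaks lay within the annotated span of a gene but in none of its protein-coding transcripts, 4 of them in tos-1. Per Mb of allowed intron sequence, peaks numbered 4.07 on chromosome I, 7.22 on V, 8.72 on III, 8.96 on X, 11.2 on IV and 11.5 on II.

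Exon peaks lay toward the end of their hosts. Of the 105, 66 had their summit within 500 bp of the 3' end of the host transcript (62.9%, 52.9 to 72.1%), against 28.3% of the allowed exon sequence and 6.94% of intron peaks. The median distance to the 3' end was 341 bp, against 1171 bp for the exon sequence. The last exon held 58.1% of exon peaks and 26.7% of the exon sequence. The 3' untranslated region held 29 summits (27.6%, against 12.7% of the sequence), coding sequence 72 (68.6%, against 86.2%) and the 5' untranslated region 4. Presence in both lists was 19.7% (13 of 66) within 500 bp of the 3' end and 12.8% (5 of 39) further away, with overlapping intervals of 10.9 to 31.3% and 4.30 to 27.4%. The nearest 5' end belonged to a gene other than the host for 39.0% of exon peaks, against 30.6% of the exon sequence. Whether such peaks relate to the host or to the gene after it was not tested.

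**Figure D4:**
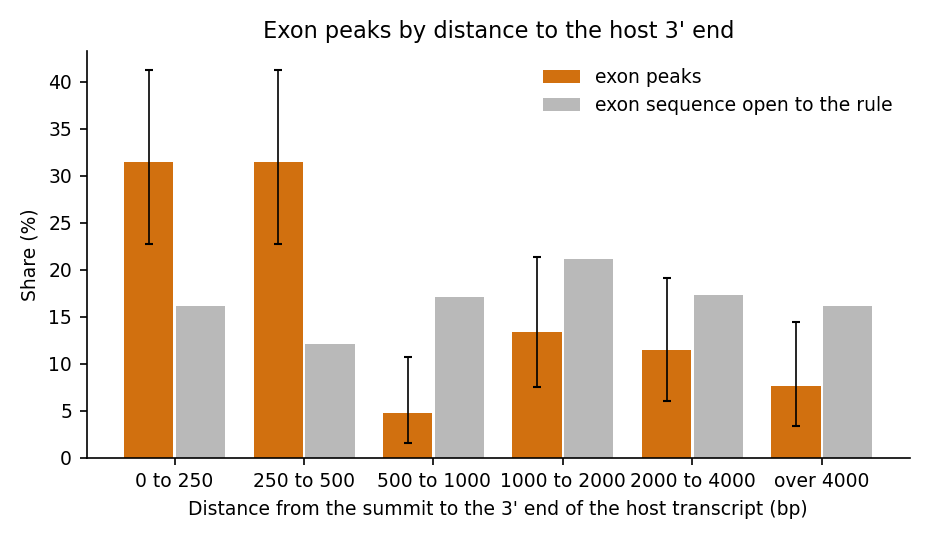
Share of exon peaks (orange, with exact 95% intervals, n = 105) and of the exon sequence open to the rule (grey) by the distance from the summit to the 3' end of the host transcript (x axis, bp). The steps up to 500 bp hold 31.4% of peaks each, against 16.2% and 12.1% of the sequence.

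The E-box was common in gene-body peaks, above its share in other main peaks as a whole and in the surrounding sequence. It is the site of basic helix-loop-helix factors such as HLH-30 and MML-1 in worms. CACGTG lay in the window of 61 of 327 gene-body peaks (18.7%, 14.6 to 23.3%), 45 in introns (20.3%) and 16 in exons (15.2%). Windows placed every 1000 bp through the allowed sequence held it in 3.0% of intron and 4.41% of exon windows. Among other main peaks it lay in 10.5%, with 10.2% at promoters, 16.8% between genes and 2.83% at small RNA genes. Of gene-body peaks in both lists 28.0% held it (23 of 82), and of the others 15.5% (38 of 245).

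The E-box share was highest among strong gene-body peaks. In the strongest quartile of the main list 17 of 50 gene-body windows held CACGTG (34.0%, 21.2 to 48.8%), against 11.3% of promoter windows (6.70 to 17.4%) and 22.3% of intergenic windows (15.5 to 30.4%). In the next group the shares were 21.8%, 11.3% and 23.6%, with intergenic peaks above gene-body peaks, and in the weakest quartile 14.4%, 9.86% and 8.57%. The intervals of gene-body and intergenic peaks overlapped in all 4 groups. Those of gene-body and promoter peaks did not overlap in the strongest quartile and overlapped in the other 3. The median distance of the word from the window centre was 35.5 bp in gene-body windows, against 43.5 bp in other main peaks and 46.5 bp in the allowed sequence. Of windows with a match, 68.85% of gene-body windows (55.7 to 80.1%) held it within 50 bp of the centre. The share was 55.9% (47.4 to 64.1%) in other main peaks, an overlapping interval, and 53.1% in the allowed sequence. Genes whose peak held an E-box include epg-9, Y111B2A.12, C34C12.2, F09A5.3, ZK470.2, fkh-7, pkg-2, pqm-1 and aak-2, which encodes a catalytic subunit of AMP-activated kinase.

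**Figure D5:**
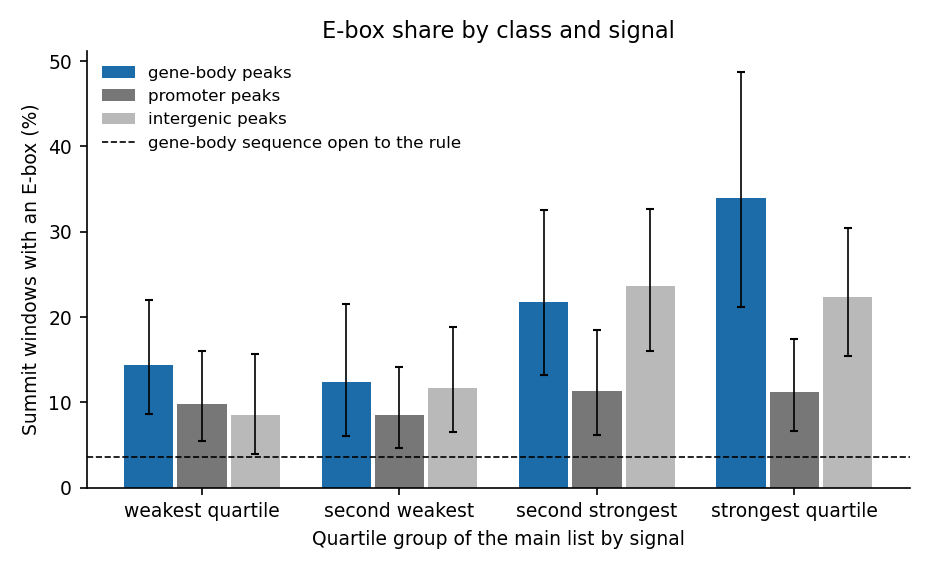
Share of summit windows with CACGTG on the y axis, in %, by quartile group of the main list on the x axis, for gene-body, promoter and intergenic peaks with exact 95% intervals. The dashed line is the share over the gene-body sequence open to the rule (3.62%), and the gene-body bar reaches 34.0% in the strongest quartile.

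Base composition differed too. Gene-body windows had a median of 43.3% G and C, against 33.3% for allowed intron and 38.8% for allowed exon sequence. The median over all main peaks was 43.8%, near that of the gene-body windows. Between the quartiles of the members' composition (38.3 to 49.3%), CACGTG lay in 23.7% of gene-body windows (41 of 173) and in 5.73% of the allowed sequence. The 5 other palindromes of the same letters that were searched, chosen after seeing the data, lay in 1.83 to 7.03% of gene-body windows and 2.08 to 4.38% of the allowed sequence. The first of the 5 is CAGCTG, another is GACGTC, a further one is GTGCAC, and the others are CTCGAG as well as CCATGG. Among all words of 6 letters found in at least 10 gene-body windows without a copy elsewhere, CACGTG ranked 2 by the ratio of its share in them (21.8%) to that in the allowed sequence, at 6.02, after GGCGCC at 6.32 (7.64%, against 1.21%).

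The other words differed in how their shares compared with the surrounding sequence, and no difference between intron and exon peaks was tested. CTGCGTCT lay in 8.11% of intron windows (18 of 222, 4.88 to 12.5%) and 1 of 105 exon windows, against 8.20% of other main peaks, 1.12% of intron and 0.428% of exon sequence. GAGAGAGA lay in 4.28% of gene-body windows, against 4.35% of other main peaks and 1.20 and 0.827% of intron and exon sequence. The tRNA B box word GTTCGANNC lay in 4.05% of intron windows and 0 of 105 exon windows, which allows up to 2.86%, against 14.0% of other main peaks. AAAAAAAA lay in 13.1% of intron windows and in 31.3% of intron sequence, and TATAAA in 9.01% and 22.0%. The word TGATAA lay in 18.7% of gene-body windows, with 17.1% in introns and 21.9% in exons, against 18% of other main peaks, 16% of intron and 18.3% of exon sequence. The bZIP site TGANTCA lay in 6.12%, against 4.64% of other main peaks, 4.73% of intron and 6.76% of exon sequence. The GC box word GGGCGG lay in 5.81%, against 9.58% of other main peaks, 3.27% of intron and 2.48% of exon sequence.

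Arrays of heat shock element units were found under a set of intron peaks. At least 1 match of GAANNTTC lay in 16.2% of gene-body windows (12.4 to 20.7%), against 15.1% of other main peaks and 16.6% of intron sequence. Windows with at least 4 matches, a number chosen after seeing the data, made up 10 of 222 intron windows (4.50%, 2.18 to 8.13%), against 1.38% of other main peaks and 0.263% of intron sequence. The share of other main peaks was not split by class. The set of main peaks linked to these windows by sequence, described below, held 19 of the 465 intergenic peaks and 11 of the 222 intron peaks. No exon window had 4, which allows up to 2.86%. Inverted GAA units are the site of heat shock factor, HSF-1 in worms. The 10 windows belong to 9 genes, with 14 and 14 matches at tir-1, 13 at cua-1, 12 at oat-1, 4 at tank-1, 9 at vab-10, 13 at vamp-8, 13 at ZK1240.1, 15 at col-52 and 11 at daf-25. Main signals were 405 at tir-1, 298 at cua-1, 146 at oat-1, 122 at tank-1, 121 at vab-10 and 105 at vamp-8, where the peaks were in both lists. They were 82.8 at ZK1240.1, 78.5 at col-52 and 73.2 at daf-25, where the peaks were not.

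All the array windows but that of tank-1 had copies elsewhere in the genome. A copy was counted where at least 50% of the window aligned elsewhere at 90% identity or more. The tir-1 window had 657 such matches and that of cua-1 654, and the tir-1 window matched the genome at the cua-1 locus over 199 bp at 93.5% identity in opposite orientation. The tank-1 window had 0 copies. Main peaks linked by such matches formed a set of 35, with 11 in introns (the 10 above and 1 in par-1), 5 at promoters and 19 between genes, of which 23 were in both lists. Where a window has copies, reads may be placed at any of them, so which copies were occupied cannot be told apart here. Although the tank-1 window had 0 copies, the window of 1 other main peak matched sequence inside the tank-1 peak. The limit may therefore apply there too.

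Copies elsewhere in the genome were found for part of the peaks in every class. Of intron windows 22.1% had a copy elsewhere (49 of 222, 16.8 to 28.1%), against 2.86% of exon windows, 14.9% of intron sequence and 5.89% of exon sequence. The share was 6.61% at promoters, 18.1% between genes, 31.4% at small RNA genes and 16.7% over all main peaks, so that of intron peaks lay among those of the other classes. A copy lay within another main peak for 12.6% of intron peaks and 0.952% of exon peaks, against 13.1% of intergenic peaks, 19.5% of small RNA gene peaks and 10.7% of all main peaks. In all 32 gene-body peaks fell into 14 sets of main peaks that share sequence, and 8 of the sets held 1 gene-body peak. All 6 main peaks of the set with mod-5 were in both lists, as were all 4 of the set with brc-1 and B0511.11, which were chosen for mention after their values were seen. A further set, also described after its values were seen, had 8 main peaks, 4 in introns and 4 between genes, and each of the 4 intron windows had 19 copies elsewhere. Main signals were 102 at T24H10.5, 95.6 at hpo-38, 88.6 at K08C7.1 and 82.8 at pmt-2, a gene of phosphatidylcholine synthesis, and none of the 4 was in both lists. The T24H10.5 window matched the genome at the hpo-38 locus at 98.0% identity in opposite orientation. The windows of both are shown as an example chosen after seeing the data. They cover the shared sequence in part, since their summits lie at different places in it. Neither holds any of the 10 marked words.
T24H10.5 intron 1, chrII:9102732-9102932: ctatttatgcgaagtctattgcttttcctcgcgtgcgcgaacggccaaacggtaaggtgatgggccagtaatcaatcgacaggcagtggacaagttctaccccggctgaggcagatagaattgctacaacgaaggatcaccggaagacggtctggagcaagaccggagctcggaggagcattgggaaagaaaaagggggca
hpo-38 intron 3, chrIII:233063-233263: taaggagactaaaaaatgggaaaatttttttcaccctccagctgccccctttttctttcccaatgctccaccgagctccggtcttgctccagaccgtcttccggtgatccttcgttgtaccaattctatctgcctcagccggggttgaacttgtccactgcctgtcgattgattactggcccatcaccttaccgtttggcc

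Several hosts held more than 1 gene-body peak. Of the 273 hosts, 239 had 1, 22 had 2, 7 had 3, 3 had 4, and 1 each had 5 and 6. These 273 genes are 1.37% of the 19973 protein-coding genes, and their median length was 6249 bp against 2027 bp for all. mnk-1, which encodes a MAP kinase-interacting kinase, held 6 peaks over 9228 bp, 3 in introns and 3 in exons. Their main signals were 78.8 to 112, and 1 of the 6 was in both lists while 4 were in 1 list. nadk-2, for mitochondrial NAD kinase, held 5 peaks over 6649 bp with main signals of 72.9 to 133. All 5 windows of nadk-2 held an E-box, and none of these peaks was in both lists while 3 were in 1.

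The hosts with 4 peaks were pkg-2 (a cGMP-dependent protein kinase), abts-4 and tos-1. In abts-4, 3 peaks lay in intron 17 and 1 in intron 19, within 2179 bp, and 3 of the 4 were in both lists. Those of pkg-2 all lay in intron 4, with main signals of 44.4 to 194 and 1 side peak among them. In tos-1 they spanned 2990 bp, had main signals of 88.1 to 167 and were in both lists in 3 of 4 cases. The hosts with 3 peaks were fkh-7 (a forkhead transcription factor), scd-1, tir-1, Y43F8B.2, Y62E10A.13, unk-1 and ZK470.2. The 3 peaks of fkh-7 lay in introns 1, 4 and 6, over 16252 bp. They had signals of 79.6, 62.0 and 43.1 in replicate 1 and 104, 55.7 and 40.8 in replicate 2, with the peak of intron 1 the highest in both. All 3 peaks of scd-1 lay in intron 1 and none was in either list.

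A peak at the promoter accompanied gene-body peaks at some hosts. Of the 273 hosts 49 also had a main peak within 500 bp of one of their own 5' ends (17.9%, 13.6 to 23.0%), against 3.54% of all protein-coding genes. Main peaks classed at small RNA genes counted here too when they lay within that distance. The share was 19.1% for hosts of intron peaks and 15.5% for hosts of exon peaks. Hosts were longer than other genes, and how far length or a neighbour's signal accounts for this share was not tested. With the list of replicate 2 in place of the main list the share was 9.63%, and with that of replicate 1 it was 14.5%. The share of all protein-coding genes was not counted in these shorter lists.

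Genes of noncoding RNA other than those in the rule lay near some intron peaks. Within 250 bp of such a gene or a pseudogene lay 36 of 222 intron summits (16.2%, 11.6 to 21.7%) and 5 of 105 exon summits (4.76%), against 7.90% of intron and 4.0% of exon sequence. The ints-8 peak (main signal 279.9, 125 in replicate 1 and 153 in replicate 2) had its summit inside rpr-1, which encodes the RNA of ribonuclease P. A klp-6 peak (148) had its summit inside srpr-2.2. The F09A5.3 peak (278) lay 20 bp from the noncoding RNA gene F09A5.11 and 197 bp from the miRNA gene cel-mir-54. Of intron peaks near such genes 36.1% were in both lists (13 of 36, 20.8 to 53.8%), and of the others 27.4% (51 of 186, 21.2 to 34.4%).

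Transcription factor and metabolic genes were among the hosts. The lists below were drawn up with earlier results of these data known, and their counts are descriptions beside the 1.37% of all protein-coding genes. Of 498 genes on the transcription factor list 19 were hosts (3.82%, median gene length 2495 bp). Within the list they were led by fkh-7, pqm-1 and nhr-27, a nuclear hormone receptor gene (main signal 140.5). The others on it included daf-16 and skn-1, regulators of lifespan and stress responses, with highest main signals of 88.6 and 79.7. These 2 were chosen for mention after their values were seen. The list is incomplete, since the hosts jun-1 (160) and let-607, annotated as transcription factors, were not counted in it. Of 59 genes on the lipid and yolk list 7 were hosts (11.9%, 4.91 to 22.9%, median gene length 3373 bp). They were led by pck-2 for phosphoenolpyruvate carboxykinase (144), cept-2 for a cholinephosphotransferase (108) and sams-1 for S-adenosylmethionine synthase (91.4). The list is broader than its name, since pck-2, pck-1 and sams-1 were counted in it.

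Of 77 signalling genes 5 were hosts (6.49%, 6564 bp), led by aak-2 (164), the Notch receptor gene lin-12 (82.9) and tpa-1, a protein kinase C gene (78.3). Of 68 heat shock and chaperone genes 5 were hosts (7.35%, 2302 bp), led by dnj-9 (108), dnj-20 (89.5) and the chaperonin gene cct-5 (72.0). The dnj-9 and cct-5 peaks were in neither list, and that of dnj-20 was in the list of replicate 2. Of 28 Mediator genes mdt-26 was the 1 host.

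The remaining lists held from 0 to 2 hosts, shares that lie near that of all protein-coding genes. None of 57 muscle structure genes was a host, which allows a share of up to 5.26% (median gene length 5357 bp). Hosts were 2 of 170 neuron and synapse genes (1.18%; the kinesin gene unc-104 at 110.3 and nlp-14 at 70.7), 2 of 176 cuticle collagen genes (1.14%; col-52 and col-140) and 1 of 47 matrix and adhesion genes (2.13%; vab-10). Of 82 ribosomal protein genes rpl-3 was the 1 host (1.22%, main signal 119), with a peak in exon 4 that was in neither list. By comparison 22 had a main peak within 500 bp of a 5' end, counting peaks classed at small RNA genes.

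Members close to the limits of the rule are given as values. Just inside the 500 bp limit lay ari-1.1 at 515 bp (main signal 77.5) and F10E7.2 at 517 bp (7.50). Just outside lay R11H6.2 at 491 bp (42.8) and rev-3 at 489 bp (79.1). Within 25 bp of the limit lay stronger peaks too, named after their values were seen, with C33B4.4 inside at 524 bp (185) and Y46G5A.22 outside at 485 bp (234), both in both lists. No member lay within 25 bp inside the limit from small RNA genes, and 1 main peak, in rps-13, lay within 25 bp outside it, 227 bp from a snoRNA gene (93.6). RefSeq annotates an mRNA 5' end within 500 bp of 2 members, 1 intron and 1 exon peak.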

How the data were processed

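The 2 samples were measured by ChIP-seq after sonication of chromatin, per the labels' protocols. The authors deposited peak lists in the ce11 build. Each sample had a thresholded list (777 peaks in replicate 1 and 1050 in replicate 2), which was used for presence. Each also had a ranked list, which was used for single-sample signal. Over both samples there were a main list and a conservative list (1690 peaks). The signal and the score of each peak are the authors' values as deposited. The score, a rank of repeatability between samples per the deposited notes, is at least 830 in the main list. It is 1000 for the Y57G11C.22 peak, which has no value in replicate 1, so a high score does not show presence in both samples. The conservative list overlapped 79.8% of gene-body peaks and 84.0% of all main peaks. The aligner, the peak caller and the control used are not given in the sources used here. Depth per sample is unknown, so no value could be set against it.

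Peaks were placed by their summit in the Ensembl release 115 annotation of WBcel235, with Python 3.11.15, pandas 2.3.3 and scipy 1.17.1. Allowed sequence, the gene-body sequence that the rule could choose, was read every 100 bp for positions and every 1000 bp for windows of 100 bp on each side (26235 intron and 20787 exon windows). Copies were found with BLAST 2.17.0. Fisher's test was tried, without adjustment, on simulated counts drawn as independent, so dependence among peaks was not covered. The 3 tests were two-sided Fisher's exact tests with Benjamini-Hochberg adjustment at 0.05. They treat peaks as independent, and exact (Clopper-Pearson) 95% intervals and the limits for a count of 0 (3 counts) cover counting error only. With 2 samples in 1 group, no test over samples was possible.

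Named genes were the hosts of the 15 intron and 10 exon peaks of highest signal, hosts with at least 3 peaks, up to 3 hosts per gene list and members near the limits. The members and lists were chosen with earlier results of these data known. The sets of main peaks that share sequence, the count of 4 heat shock element units and the palindromes were chosen after seeing the data.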

Additional observations from a re-analysis of the deposited data

How the results depend on the processing

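In 11 results and 127 alternative values, 98 were labelled as unchanged. For this an odds ratio had to keep its direction and call, and a share had to stay within the interval of the main value. A count of peaks had to stay within a set fold range of the main count. No odds ratio changed direction, which was not defined for the counts and shares. Among main peaks at or above the median signal there were 95 intron and 33 exon peaks, CACGTG lay in 26.6% of gene-body windows, 72.7% of exon peaks were within 500 bp of the host 3' end, 10.7% of hosts had a promoter peak, 63.2% of intron and 54.5% of exon peaks were in both lists, and the odds ratios were 1.43 (intron against exon), 0.729 (gene body against promoter) and 0.840 (gene body against intergenic). With 1 sample's own list in place of the main list, leaving out replicate 1 or replicate 2, there were 97 to 116 intron and 45 to 53 exon peaks. The first-intron share was 27.9 to 30.4%, CACGTG 21.1 to 23.3%, exon peaks near the 3' end 66.0 to 77.8% and hosts with a promoter peak 9.63 to 14.5%. Presence in 1 list was 42.3 to 45.5% for intron and 33.3% for exon peaks in each sample, and the odds ratios were 1.47 to 1.67, 0.587 to 0.869 and 0.523 to 0.791. Counting the first intron of any transcript gave 38.9%. An overlap of 50% gave 21.2% of intron peaks in both lists and an odds ratio of 1.75 for intron against exon, the conservative list 1.70 and, added after seeing the data, side peaks left out 1.81. The cause was not tested. No paired analysis was possible because there is 1 group. Peak lists from 2 samples with no depth or control limit every share to what the authors' calling kept.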
